A study of Arabidopsis thaliana with 8 samples.

Results

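The difference between roots of bzr1-D and wild-type Arabidopsis thaliana seedlings, averaged over phosphate (Pi) supply, was described for the features of the nuclear genome that lie on chromosomes 2 and 4, on chromosome 1 from 26 Mb, on chromosome 3 from 8 Mb, and on chromosome 5 below 5 Mb or from 25 Mb. These intervals hold 22327 of the 40246 annotated features in the table, of which 7765 had no count in any library. Enough counts for a test were present for 10949 of them, out of 20262 features tested in all. The intervals were selected on the genotype difference in these same 8 libraries, as stretches where called features do not crowd together. Every genotype value in the text is therefore a description of these libraries, and no p-value for it is given. Tests are given for the Pi response and for the genotype by Pi interaction, which played no part in the choice.

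Wild type and bzr1-D seedlings, both in the Col-0 background, were moved at day 6 to medium with adequate Pi (0.625 mM) or low Pi (1 µM), and the roots were taken after 24 h, from seedlings of 7 days. The 4 groups were wild type at adequate Pi, wild type at low Pi, bzr1-D at adequate Pi and bzr1-D at low Pi, each with 2 libraries described as biological replicates and numbered Exp 1 and Exp 2. A single library is named by genotype (WT or bz), Pi supply (A for adequate, L for low) and Exp number, so that WT-L2 is wild type at low Pi in Exp 2. The bzr1-D allele is 1 line, so the allele cannot be told apart from anything else that line carries, which was not tested. The labels do not say how many seedlings or roots were pooled in a library. Total counts per library ran from 15947895 to 22150569, so 1 count per 1000000 (CPM) stood for 15.9 to 22.2 counts. Markers of the Casparian strip and suberin, which mark the root endodermis, summed to between 1178 and 1432 CPM in every library, with CASP1 between 140 and 197 CPM. Markers of shoot tissue summed to 138 to 181 CPM in wild type and 199 to 234 CPM in bzr1-D, so the genotypes did not overlap in them, and LHCA4 alone of the 21 was at 0 in all 8 libraries. Markers of touch and wounding summed to 321 to 856 CPM in wild type and 284 to 354 CPM in bzr1-D, with the highest value in wild type at low Pi in Exp 2. The sums take whole lists, in or out of the intervals. Of these genes, 8 of 15 (Casparian strip and suberin), 10 of 21 (shoot) and 5 of 15 (touch and wounding) lie in the intervals. The part of these markers in the genotype differences was not tested. In bulk roots, fewer cells of a type and less RNA per cell cannot be told apart.

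Brassinosteroids are steroid hormones that promote cell elongation and division. They are perceived at the plasma membrane by the receptor kinase BRI1, whose signal inactivates the kinase BIN2 and lets the transcription factor BZR1 gather in the nucleus in its dephosphorylated form. There BZR1 represses genes of hormone synthesis, which closes a feedback loop, and acts on genes of cell wall loosening and growth. It binds the motifs CGTGTG and CGTGCG, known as the brassinosteroid response element, and the G-box CACGTG. The dominant bzr1-D mutation stabilises the protein, so the hormone response is partly switched on without added hormone.

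In the intervals, 494 features were called higher in bzr1-D (4.51% of those tested there, against 7.28% of all features tested) and 463 lower (4.23% against 8.96%). A feature was called at an adjusted p under 0.05 over all features tested. Together the 957 called features were 8.74% of those tested in the intervals, whereas 25.1% of the 9313 features tested elsewhere were called. That contrast chose the intervals, so nothing is read from it. Per interval the share called was 8.01% on chromosome 1, 8.37% on chromosome 2, 9.04% on chromosome 3, 9.36% on chromosome 4, and 7.27% and 10.8% on the lower and upper stretches of chromosome 5. Bins of 1 Mb with at least 20 tested features held 3.67% to 17.2% called features in the intervals (median 9.09% over 62 bins), and 7.08% to 46.4% outside (median 26.2% over 50 bins). At the limits, the bins just inside and just outside held 12.3% and 23.3% on chromosome 1, 10.4% and 22.5% on chromosome 3, and 6.01% and 10.4% at the lower and 9.31% and 21.7% at the upper limit on chromosome 5. Chromosome 1 from 17 to 23 Mb lies outside, although 8.70% of its 1011 tested features were called.

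**Figure D1:**
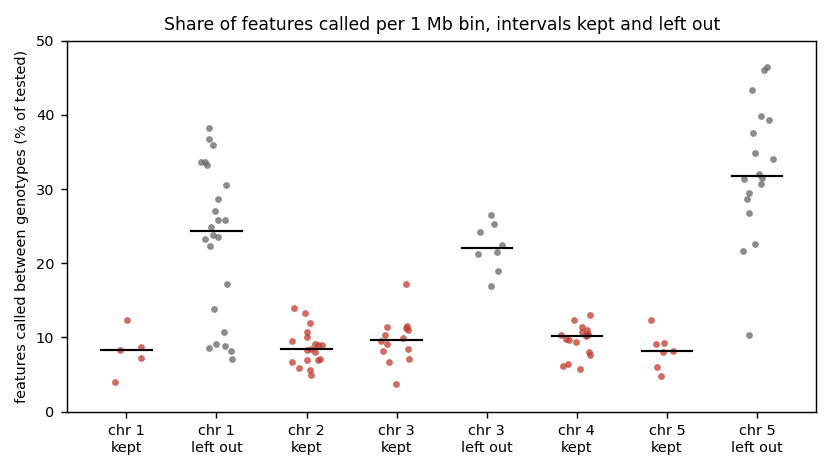
Share of tested features called between the genotypes in each 1 Mb bin with at least 20 tested features, for the stretches kept (red) and left out (grey) of each chromosome, with medians as bars. Kept bins lie between 3.67% and 17.2%, and bins left out between 7.08% and 46.4%.

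The differences were mostly small. The median log2 fold change was 0.39 among features called higher and -0.50 among those called lower, and 59.4% of the called features differed by less than 0.5 on the log2 scale. A difference of at least 1 was present in 45 features called higher and 90 called lower, and a difference of at least 2 in 13 and 33. The 4 wild-type libraries and the 4 bzr1-D libraries did not overlap for 440 called features (203 higher and 237 lower), against 714 or 6.52% of all features tested in the intervals. In 902 of the 957 the genotype difference had the same sign at both Pi levels in both experiments, which the choice of called features largely fixes. The median level of called features over the 8 libraries was 18.6 CPM, against 17.8 CPM for all features tested in the intervals. Protein-coding genes made up 923 of them (8.74% of 10555 tested), with 14 of 145 pseudogenes, 8 of 125 other RNAs and 12 of 124 features that the reference does not annotate.

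The genotype difference was computed separately in each experiment, from different libraries. Across the 10949 features, on the log2(CPM + 0.5) scale, Pearson's r between the differences in Exp 1 and Exp 2 was 0.42 and Spearman's rho was 0.28, and between those at adequate and low Pi r was 0.65 and rho was 0.47. These are correlations across features, which are not independent replicates and share a library. Of the features called lower, 26 had a difference larger in Exp 2 than in Exp 1 by at least 1 on that scale and 0 the reverse, whereas 3 and 2 of those called higher did, as the plot of the 2 experiments shows. Without the Exp number in the fit, 106 features were called higher and 119 lower. With bz-A1 left out, 327 were called higher.

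**Figure D2:**
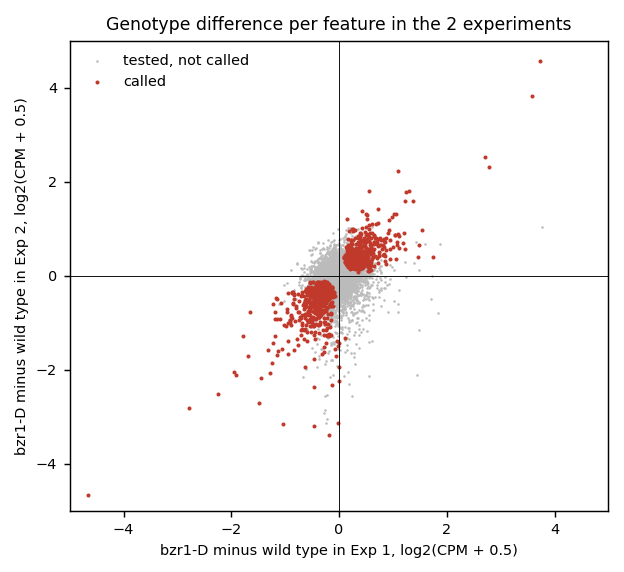
Genotype difference of each feature tested in the intervals, on the log2(CPM + 0.5) scale and averaged over Pi, in Exp 1 (x axis) and Exp 2 (y axis), with called features in red. Of the 957 called features 954 have the same sign in both experiments, which the choice of called features largely fixes.

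BZR1 itself (AT1G75080.1, chromosome 1, 28185504 to 28187410) was measured first. Its level in wild type was 28.1 and 30.3 CPM at adequate Pi and 32.04 and 32.9 CPM at low Pi, in Exp 1 and Exp 2. In bzr1-D it was 28.7 and 33.9 CPM at adequate Pi and 27.9 and 30.1 CPM at low Pi. The genotypes overlapped, and the log2 fold change of -0.03 ± 0.07 (SE) was not called. Since the allele changes the protein, a transcript level is no check on the genotype. The exons of BZR1 share 266 bases with the neighbouring AT1G75090.

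The 3 called genes of brassinosteroid synthesis were all lower in bzr1-D. DWF4 (AT3G50660, chromosome 3, 18814140 to 18817244), the side-chain hydroxylase at the rate-limiting step, measured 30.1 and 27.3 CPM at adequate Pi and 26.3 and 23.1 CPM at low Pi in wild type. In bzr1-D it measured 17.3 and 11.2 CPM at adequate Pi and 16.9 and 9.38 CPM at low Pi. All 4 bzr1-D libraries lay under all 4 wild-type libraries, with means of 13.7 ± 3.98 and 26.7 ± 2.87 CPM (SD, n = 4), and within bzr1-D the Exp 2 libraries were the lower ones. The log2 fold change was -0.99 ± 0.11 (SE). CPD (AT5G05690.1, chromosome 5, 1702688 to 1706780), another cytochrome P450 of the pathway, measured 36.0, 47.5, 39.2 and 48.0 CPM in wild type and 23.04, 25.5, 23.5 and 27.2 CPM in bzr1-D, in the order adequate Pi in Exp 1 and Exp 2, then low Pi in Exp 1 and Exp 2, which is kept from here on. Its log2 fold change was -0.78 ± 0.06. BR6OX2 (AT3G30180, chromosome 3, 11810737 to 11813765), which makes the most active hormone brassinolide in the last step, measured 18.7, 20.4, 16.7 and 18.6 CPM in wild type and 9.46, 10.003, 8.32 and 8.87 CPM in bzr1-D (-1.02 ± 0.07). For all 3 genes the genotypes were apart in every library, and the calls were kept whichever library was left out and also without the Exp number in the fit.

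Of the 17 listed genes of hormone synthesis and inactivation, 11 lie in the intervals and 10 were tested. Of these, 1 was called higher and 4 lower, against 4.51% and 4.23% of all features tested in the intervals. Their median log2 fold change was -0.16, against 0.01 for all features tested there. The synthesis enzymes ROT3 and DET2 had nearly equal levels in the genotypes, 55.0 and 54.7 CPM for ROT3 and 23.7 and 23.9 CPM for DET2, in wild type and bzr1-D. BAS1, a P450 that inactivates the hormone, was the gene called higher. It measured 15.8, 20.6, 19.0 and 19.6 CPM in wild type and 20.7, 24.2, 19.97 and 24.6 CPM in bzr1-D (0.25 ± 0.07), so the genotypes overlapped. BAS1 kept its call without WT-L1 or bz-L1 and lost it without each of the other 6 libraries. UGT73C5, a glucosyltransferase that inactivates the hormone, was near the detection limit at 0.203, 2.203, 0.881 and 0.811 CPM in wild type and 0.156, 0.435, 0.153 and 0.226 CPM in bzr1-D. Its log2 fold change of -2.03 ± 0.54 lost its call without bz-A1, bz-A2, bz-L2 or WT-A2, and was -1.36 without the last.

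**Figure D3:**
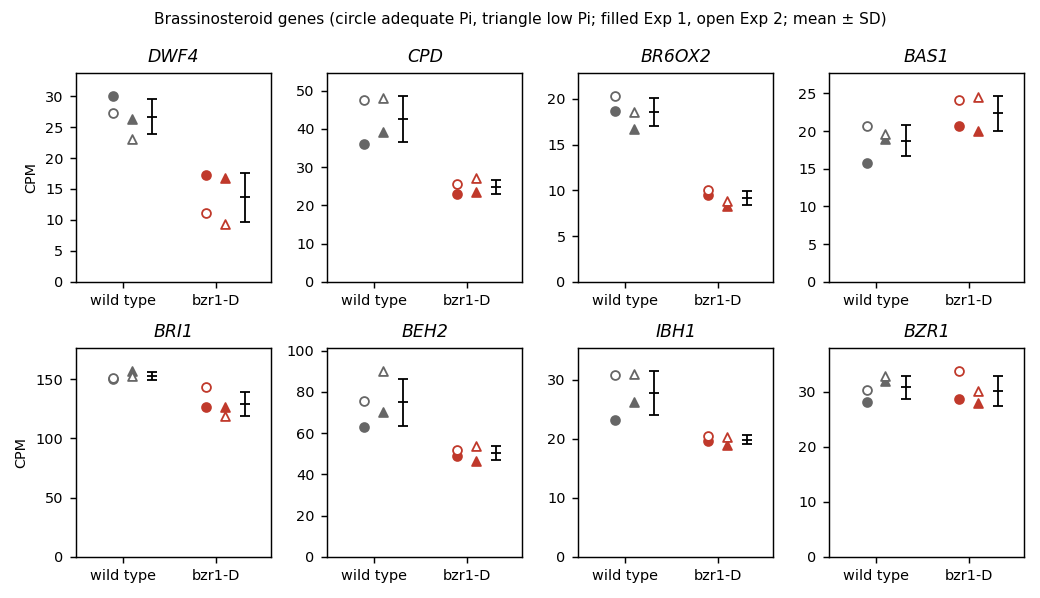
CPM of 8 brassinosteroid genes in each library (circles adequate Pi, triangles low Pi, filled Exp 1, open Exp 2) with the mean ± SD over 4 libraries per genotype. DWF4, CPD, BR6OX2, BRI1, BEH2 and IBH1 do not overlap between the genotypes, while BAS1 and BZR1 do.

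Among 13 genes of hormone perception and signalling, all tested, 0 were called higher and 2 lower, with a median of 0.01. The shares over all features tested in the intervals were 4.51% and 4.23%. The counts are too small to set against these shares, and nothing is read from them. The receptor BRI1 (AT4G39400) measured 149.8, 150.9, 157.2 and 152.5 CPM in wild type and 126.6, 143.5, 126.7 and 119.2 CPM in bzr1-D (-0.24 ± 0.06). The groups did not touch, but the difference was small and the call was lost without bz-A1, bz-L2, WT-L1 or WT-L2. BEH2 (AT4G36780, chromosome 4, 17332517 to 17334349), a close homologue of BZR1, measured 62.9, 75.7, 70.4 and 90.3 CPM in wild type and 48.7, 51.6, 46.4 and 53.9 CPM in bzr1-D. Every bzr1-D library was under every wild-type library (-0.57 ± 0.07), and this call held without each library in turn and without the Exp number. The other family members BEH1, BEH3 and BEH4 were not called, with log2 fold changes of -0.18 ± 0.24, -0.07 ± 0.09 and 0.03 ± 0.07. The kinase BIN2, which phosphorylates BZR1, had 220.2 and 235.7 CPM in wild type and bzr1-D (0.10 ± 0.06, not called). IBH1, a bHLH protein that restrains cell elongation, measured 23.2, 30.8, 26.3 and 31.0 CPM in wild type and 19.7, 20.6, 19.0 and 20.3 CPM in bzr1-D (-0.48 ± 0.07). It was the 1 gene called, as lower, among the 4 tested growth genes of the hormone (0 higher, median 0.19). The growth-promoting BEE2 and PRE3 had 0.37 ± 0.13 and 0.02 ± 0.06 and were not called.

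The bases just before the gene start, where the motifs of BZR1 were searched, are shown for the 3 synthesis genes that stood lower together, and for 3 further genes called lower whose windows hold a motif. These 6 were picked after their values were seen. They are the 250 bases upstream of the start annotated by RefSeq on TAIR10.1, read 5′ to 3′ on the gene's strand, and capitals mark the motifs of BZR1 named above, searched on both strands and merged where they overlap.
DWF4: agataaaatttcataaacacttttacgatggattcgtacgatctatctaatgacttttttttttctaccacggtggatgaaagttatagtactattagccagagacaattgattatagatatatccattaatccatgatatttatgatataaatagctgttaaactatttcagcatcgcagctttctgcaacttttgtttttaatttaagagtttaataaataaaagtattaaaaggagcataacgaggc
CPD: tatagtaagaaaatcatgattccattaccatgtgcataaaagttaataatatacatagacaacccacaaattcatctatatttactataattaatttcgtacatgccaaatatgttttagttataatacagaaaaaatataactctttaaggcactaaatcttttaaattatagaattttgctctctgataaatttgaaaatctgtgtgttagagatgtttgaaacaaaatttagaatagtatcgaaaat
BR6OX2: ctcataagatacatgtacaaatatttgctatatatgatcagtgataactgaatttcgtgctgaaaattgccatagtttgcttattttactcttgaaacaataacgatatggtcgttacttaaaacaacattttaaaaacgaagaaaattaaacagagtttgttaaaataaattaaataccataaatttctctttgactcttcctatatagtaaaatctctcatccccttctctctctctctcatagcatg
BEH2: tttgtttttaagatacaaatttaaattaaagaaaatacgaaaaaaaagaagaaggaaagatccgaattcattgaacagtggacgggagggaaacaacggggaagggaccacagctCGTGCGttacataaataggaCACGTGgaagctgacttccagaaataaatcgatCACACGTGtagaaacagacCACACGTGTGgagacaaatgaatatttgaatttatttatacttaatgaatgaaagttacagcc
ACS11: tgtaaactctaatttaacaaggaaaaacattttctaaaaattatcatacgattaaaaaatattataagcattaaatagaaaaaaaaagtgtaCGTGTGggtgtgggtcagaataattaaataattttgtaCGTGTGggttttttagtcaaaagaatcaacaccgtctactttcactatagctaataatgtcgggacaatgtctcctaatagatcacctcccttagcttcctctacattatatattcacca
CLE2: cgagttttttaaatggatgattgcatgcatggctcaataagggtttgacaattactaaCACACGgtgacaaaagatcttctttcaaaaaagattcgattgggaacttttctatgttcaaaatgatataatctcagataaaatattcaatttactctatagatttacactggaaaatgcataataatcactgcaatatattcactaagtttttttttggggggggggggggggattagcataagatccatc
The windows lie at chr3:18817406-18817655 on the minus strand (DWF4), chr5:1706949-1707198 minus (CPD), chr3:11810476-11810725 plus (BR6OX2), chr4:17334356-17334605 minus (BEH2), chr4:4886712-4886961 plus (ACS11) and chr4:10211327-10211576 plus (CLE2). Those of DWF4, CPD and BR6OX2 hold none of the 3 motifs, which says only that these letters are not in these windows. For DWF4, CPD, ACS11 and CLE2 the RefSeq start lies upstream of the start in the deposited table. The bases between these starts are not in the windows shown, so motifs there are not marked. BEH2 has 1 CGTGCG, 3 CGTGTG and 3 CACGTG within 135 bases of the start, and in the stretch that begins 63 bases before the start CGTGTG on each strand overlaps a CACGTG. ACS11 has CGTGTG at 158 and 120 bases before the start, and CLE2 has it on the other strand at 192 bases.

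Windows from 250 bases before to 50 bases after each annotated start were counted in the same way. CGTGTG or CGTGCG was present in 8.19% of 27443 promoters of the genome, in 9.10% of 10560 promoters of features tested in the intervals, in 15.4% of 448 promoters of features called lower and in 6.54% of 474 of features called higher. CGTGTG alone was in 12.3% of promoters called lower and 6.12% called higher, against 7.40% of those tested. CGTGCG was in 3.57% and 0.633%, against 2.08%. CACGTG, which can overlap CGTGTG by 4 bases, was in 12.3% and 8.86%, against 9.02%. Among features that differed by at least 1 on the log2 scale, the order was reversed for CACGTG. It was in 6.33% of 79 promoters called lower and 15.2% of 33 called higher. CGTGTG or CGTGCG was in 15.2% and 6.06% of these. These shares are a description, and a match is neither a binding site nor a cause.

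The genes of cell wall loosening that were called were mostly higher in bzr1-D. Expansins loosen the contact between cellulose and other wall polymers, and xyloglucan endotransglucosylase/hydrolases (XTH) cut and rejoin the xyloglucan chains that tie cellulose together. Of 33 listed genes, 23 lie in the intervals and 22 were tested. Of these, 7 were called higher, 1 lower and 14 were not called, against 4.51% higher and 4.23% lower of all features tested there. The median log2 fold change was 0.16, against 0.01 for all features tested there. XTH31 (AT3G44990, chromosome 3, 16446975 to 16448764) measured 122, 67.5, 122 and 79.2 CPM in wild type and 291, 116, 268 and 123 CPM in bzr1-D. Levels were higher in Exp 1 than in Exp 2 in both genotypes, so the groups overlapped, but within each experiment bzr1-D was the higher at both Pi levels (0.95 ± 0.10). XTH4 (AT2G06850, chromosome 2, 2763526 to 2765720) measured 117, 148, 121 and 126 CPM in wild type and 181, 208, 176 and 195 CPM in bzr1-D, with no overlap (0.57 ± 0.06). XTH19 measured 67.1, 63.1, 53.4 and 53.5 CPM in wild type and 95.4, 70.7, 102 and 70.0 CPM in bzr1-D (0.50 ± 0.10), again with no overlap.

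The expansins EXPA4, EXPA15 and EXPA17 had log2 fold changes of 0.52 ± 0.09, 0.30 ± 0.05 and 0.52 ± 0.11. EXPA4 measured 60.1, 38.1, 66.1 and 50.4 CPM in wild type and 93.4, 46.7, 102 and 71.7 CPM in bzr1-D. EXPA17, at a lower level, measured 9.98, 7.87, 7.65 and 5.84 CPM in wild type and 11.6, 10.1, 11.8 and 10.96 CPM in bzr1-D, and was the expansin whose genotypes did not overlap. XTH16 (0.41 ± 0.11) was higher in bzr1-D in 3 of the 4 matched pairs, with 37.4 CPM in wild type and 36.0 CPM in bzr1-D at adequate Pi in Exp 1. Its call was kept without WT-A1 or bz-A1 and lost without each of the other 6 libraries. XTH24 (AT4G30270), another XTH gene, went the other way. It measured 128, 181, 155 and 176 CPM in wild type and 59.8, 99.0, 74.6 and 143 CPM in bzr1-D (-0.83 ± 0.12), and overlapped only through bzr1-D at low Pi in Exp 2. XTH26, EXPA1 and XTH14 had log2 fold changes of -1.51 ± 0.39, -0.62 ± 0.30 and -0.69 ± 0.34 and were not called. EXPA1 was -0.30 without WT-L2, and XTH14 was -0.43 without bz-A2. Of these cell wall genes, XTH4 alone kept its call without the replicate block.

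**Figure D4:**
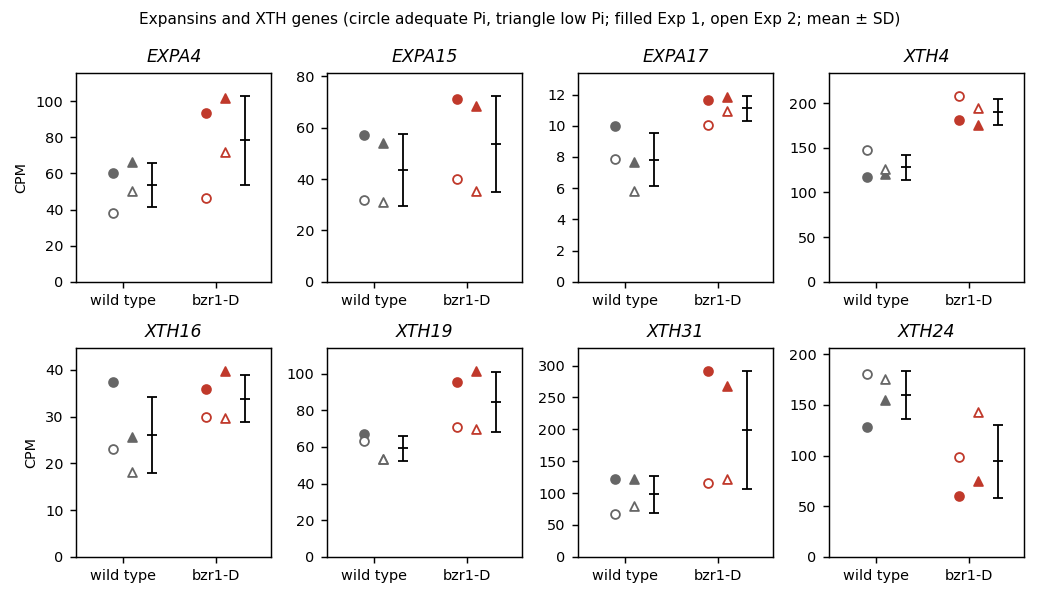
CPM of the 8 called expansin and XTH genes in each library (circles adequate Pi, triangles low Pi, filled Exp 1, open Exp 2) with the mean ± SD over 4 libraries per genotype. XTH31, XTH16, EXPA4, EXPA15 and EXPA17 are higher in Exp 1 than in Exp 2 in both genotypes at both Pi levels, and XTH24 is the gene with the lower mean in bzr1-D.

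The largest differences belonged to features that were nearly silent in wild type or in bzr1-D. RLFS_026263 (chromosome 4, 1373146 to 1373902), a transcript with no annotation in the reference, had 0 counts in all 4 wild-type libraries and 7.07, 12.7, 5.31 and 10.2 CPM in bzr1-D. Its level was at least 56.7-fold higher in bzr1-D, taking 3 counts in each library as the floor, a bound that like the intervals below covers counting error only. AT2G12190, a cytochrome P450, had 2 counts in wild type and 189 in bzr1-D, a ratio of 99.6 (exact 95% interval 27.2 to 828). AT2G04190, a TRAF-like protein, had 3 and 209 counts, a ratio of 73.4 (24.8 to 359). The non-coding AT4G04223 measured 0.360 to 0.540 CPM in wild type and 10.6 to 13.8 CPM in bzr1-D (4.68 ± 0.17 log2). At 95% identity or more its exons match 2 other loci, with AT3G56210 sharing 350 bases at 99.1%, so reads could pass between them.

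In the other direction, AT3G42806 (chromosome 3, 14914008 to 14918667), an uncharacterised gene, measured 11.8, 11.9, 12.6 and 14.2 CPM in wild type and had 1 count in bzr1-D in all, a ratio of 938 (exact 95% interval 168 to 37078). Its exons share 153 bases at 97.4% identity with AT5G34851. The unannotated At2NC028310 measured 2.81 to 3.24 CPM in wild type and 0 counts in bzr1-D, at least 18.2-fold lower there. AT3G29120 had 132 counts in wild type and 3 in bzr1-D, a ratio of 41.8 (13.98 to 205), and 5 other loci match its exons at 95% identity or more. These 7 features were chosen for their genotype difference, and those near 0 in a genotype passed the filter on low counts through the other. None of the 7 passed the test of the Pi response, with adjusted p from 0.74 to 0.998 (edgeR's quasi-likelihood test, Benjamini-Hochberg over all features).

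The remaining features with the largest called increase included transporters. HKT1 (AT4G10310), which retrieves sodium from the xylem of the root, measured 2.23, 2.29, 3.03 and 1.297 CPM in wild type and 6.45, 9.38, 5.77 and 10.8 CPM in bzr1-D (1.84 ± 0.28), with no overlap. HMA2 (AT4G30110, chromosome 4, 14720241 to 14724584), a zinc-exporting ATPase that loads the metal for transport to the shoot, measured 4.91, 2.07, 8.75 and 5.62 CPM in wild type and 13.3, 7.21, 23.7 and 18.03 CPM in bzr1-D (1.57 ± 0.12). Here bzr1-D was higher within each pair, and the levels were higher at low Pi in both genotypes. The receptor-like kinase CRK4, the PR1-like AT4G33720 and RSU1 lay between 0.0550 and 0.764 CPM in wild type and 0.919 and 3.62 CPM in bzr1-D. The unannotated RLFS_019663, which overlaps 3 other features, and the non-coding AT4G14548 had 1.66 ± 0.25 and 1.64 ± 0.17. ACA1, an alpha carbonic anhydrase, had 1.85 ± 0.39, and it overlapped between the genotypes, lost its call without WT-L1 or bz-L1, and shares 303 bases with AT3G08280.

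In 3 of the features with the largest decreases the wild-type libraries were uneven. CYP82C2, a P450 of indole-derived defence compounds, measured 0.203, 18.9, 0.0550 and 2.54 CPM in wild type and 0.0520, 0.311, 0.0511 and 0.170 CPM in bzr1-D. Both wild-type libraries of Exp 2 were well above those of Exp 1, and the log2 fold change of -4.95 ± 0.45 became -3.24 without bz-A2. AT3G60420, a phosphoglycerate mutase family protein, measured 0.0506, 2.88, 2.42 and 9.40 CPM in wild type and at most 0.255 CPM in bzr1-D, and its -4.57 ± 0.78 became -3.15 without bz-L2. GLR2.2, a glutamate receptor-like channel, measured 0.203, 2.74, 0.550 and 0.757 CPM against at most 0.204 CPM. Its -3.05 ± 0.74 became -1.96, with no call, without WT-A2, and the call was also lost without bz-A1, bz-A2 or bz-L2.

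In other genes called lower the genotypes lay apart in every library. MYB55 (AT4G01680, chromosome 4, 716004 to 717579), a transcription factor of the R2R3 class, measured 21.7, 23.5, 18.8 and 21.2 CPM in wild type and 3.64, 3.11, 4.14 and 3.96 CPM in bzr1-D (-2.51 ± 0.11). CLE2 (AT4G18510), the precursor of a signalling peptide, measured 7.39, 9.62, 6.83 and 6.65 CPM in wild type and 2.03, 1.62, 1.02 and 1.47 CPM in bzr1-D (-2.31 ± 0.16). ACS11 (AT4G08040), which makes the precursor of ethylene, measured 1.57, 3.24, 2.64 and 6.27 CPM against 0.364, 0.249, 0.460 and 0.283 CPM (-3.22 ± 0.31). QQS, an orphan gene that acts on starch content, measured 2.18, 1.44, 2.42 and 1.13 CPM against 0.364, 0.186, 0.255 and 0.283 CPM (-2.69 ± 0.29). Each of these 4 genes kept its call without each library in turn. AT2G05350 and AT4G08093 had -3.70 ± 0.47 and -2.23 ± 0.34. BLH2, a BEL1-like homeodomain protein, and ER, the ERECTA receptor kinase, were named after their values were seen. BLH2 measured 7.09, 7.60, 7.76 and 11.9 CPM against 2.03, 1.55, 2.86 and 1.87 CPM (-2.03 ± 0.18), and ER 1.92, 1.53, 2.26 and 1.68 CPM against 0.624, 0.249, 0.868 and 0.170 CPM (-1.95 ± 0.30).

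Lists of root cell types and processes are described by counts and medians. Of all features tested in the intervals 4.51% were called higher and 4.23% lower. In lists of this size a count of 1 or 2 called members is too small to set against these shares, and nothing is read from it. Among 12 root hair genes, 1 was called higher and 1 lower, with a median of -0.47. GL2, which marks and specifies non-hair cells, had 0.28 ± 0.09, and CPC, which promotes hair fate, had -0.44 ± 0.12. GL2 overlaps a neighbouring gene and kept its call without bz-A1 only, and CPC lost its call without bz-A1, bz-A2, bz-L2, WT-A2 or WT-L1. The hair growth genes PRP3, RSL2 and COW1 had -0.69 ± 0.29, -0.63 ± 0.30 and -0.45 ± 0.22 and were not called. Without bz-A2 these values were -0.49, -0.36 and -0.27. All 24 root hair markers, in or out of the intervals, summed to 678 to 940 CPM in wild type. The sum was 419 CPM in bz-A2 and 602 to 987 CPM in the other bzr1-D libraries, and its part in these differences was not tested. Of 16 auxin genes, 2 were called higher and 2 lower (median -0.08). The auxin efflux carrier PIN3 had 0.29 ± 0.06, whereas its relative PIN4 had -0.43 ± 0.07, measuring 44.2, 44.6, 46.0 and 39.4 CPM in wild type and 34.8, 33.5, 34.6 and 27.0 CPM in bzr1-D. LBD16, which acts in lateral root initiation, had -0.43 ± 0.10. LBD16 lost its call without WT-L2.

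Of 9 genes of the root meristem and mitosis, 3 were called higher and 0 lower (median 0.17). SHR, the mobile regulator of the endodermis and stem cell niche, and the mitotic cyclins CYCB1;2 and CYCB2;4 had 0.23 ± 0.06, 0.22 ± 0.06 and 0.34 ± 0.08. CYCB2;4 measured 14.5, 11.8, 12.6 and 11.9 CPM in wild type and 17.4, 14.8, 17.4 and 14.8 CPM in bzr1-D, without overlap. SHR lost its call without bz-A2, bz-L1, WT-A2 or WT-L2. CYCB1;2 kept its call without bz-L1 or WT-A1 and lost it without the other 6, and its exons share 390 bases with CYCB1;5. Of 8 Casparian strip and suberin genes, 1 was called higher and 0 lower (median 0.15). This was SGN3, the receptor kinase of the strip (0.21 ± 0.06), which overlaps AT4G20150 and kept its call without bz-A2 or bz-L1 only. None of the 6 xylem and secondary wall genes (median 0.14), the 16 iron genes (median -0.15) or the 2 nitrate genes (median -0.20) was called, by the same edgeR test.

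Of 20 tested genes of the Pi starvation response, 1 was called higher and 0 lower, with a median genotype difference of 0.29. That share is close to the 4.51% called higher among all features tested in the intervals. PAP12, a secreted acid phosphatase, measured 60.9, 59.7, 72.9 and 95.1 CPM in wild type and 71.7, 71.4, 117 and 119 CPM in bzr1-D (0.37 ± 0.08). Uncalled members varied widely. The non-coding AT4, which sequesters a microRNA, measured 24.1, 26.9, 69.2 and 298 CPM in wild type and 85.1, 64.1, 270 and 322 CPM in bzr1-D (1.19 ± 0.51), and the galactolipid synthase MGD3 had 1.31 ± 0.44. MGD3 measured 2.13, 1.71, 1.21 and 2.32 CPM in wild type and 2.70, 2.11, 9.55 and 5.99 CPM in bzr1-D, so the genotypes lay apart at low Pi and overlapped at adequate Pi. Without WT-L1 its log2 fold change was 0.79. Among the 6 flavonoid genes tested, the hydroxylase F3'H was called higher (0.35 ± 0.10) and the activator MYB12 lower (-0.49 ± 0.09), with a median of 0.11. F3'H lost its call without any of WT-A1, WT-L1, WT-L2, bz-L1 and bz-L2.

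The sums over whole lists lay apart between the genotypes for shoot markers and overlapped for touch and wounding markers. Both lists had called members in the intervals. Of 9 tested shoot genes, 3 were called higher and 0 lower, against 4.51% and 4.23% of all features tested in the intervals. Their median was 0.39, and all 9 had a positive log2 fold change. PSAD1, a photosystem I subunit, measured 6.94, 4.18, 7.27 and 5.13 CPM in wild type and 8.996, 8.82, 10.4 and 11.1 CPM in bzr1-D (0.75 ± 0.13), with no overlap. LHCB4.1 and RCA had 0.40 ± 0.10 and 0.41 ± 0.10. RCA lost its call without bz-A2, and LHCB4.1 without bz-A1, bz-L2 or WT-L2. Of 5 touch and wounding genes, 0 were called higher and 2 lower, with a median of -0.72. WRKY40, a stress-induced transcription factor, measured 5.52, 11.4, 10.5 and 19.8 CPM in wild type and 3.48, 3.91, 3.98 and 4.86 CPM in bzr1-D (-1.45 ± 0.17), and WRKY33 measured 68.5, 117, 91.6 and 143 CPM against 60.4, 59.3, 62.1 and 64.7 CPM (-0.72 ± 0.16). Wild type was uneven in both, highest at low Pi in Exp 2, while bzr1-D was level. WRKY33 lost its call without bz-A2, bz-L1, bz-L2, WT-A2 or WT-L1. Both genes overlap a neighbour, and WRKY40 shares 175 bases at 96.0% identity with AT3G32090. Of the called members of the lists from root hairs onward, PIN3, PIN4, MYB12, PSAD1, WRKY33 and WRKY40 kept their call without the Exp number.

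**Figure D5:**
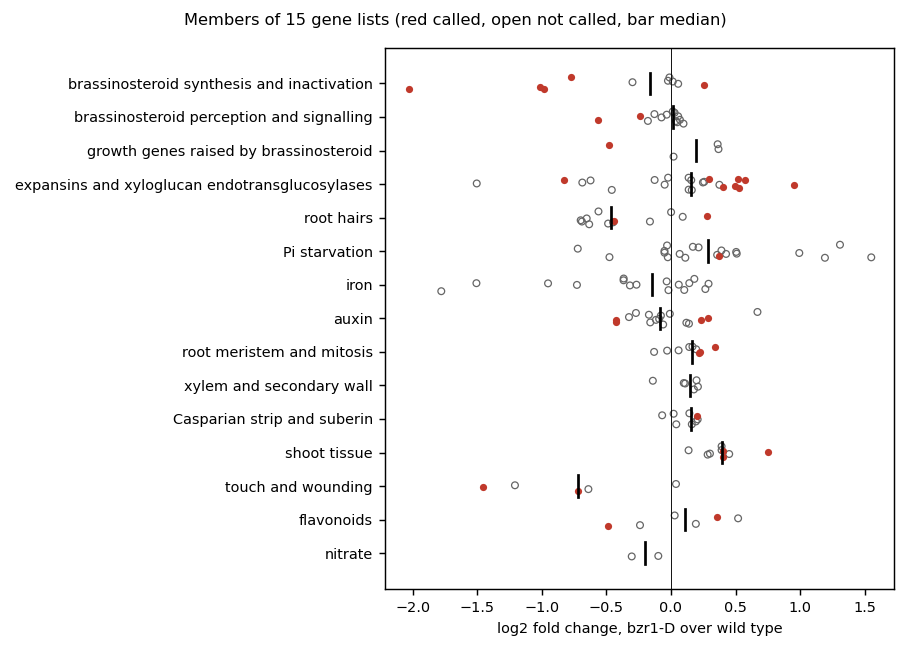
Log2 fold change between the genotypes (bzr1-D over wild type) of each tested member of 15 gene lists that lies in the intervals, red where called and open where not, with a bar at the median. List medians run from -0.72 for touch and wounding to 0.39 for shoot tissue, and no iron, xylem or nitrate gene is called.

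The Pi response averaged over genotype was tested in the same fit. In the intervals 16 features rose at low Pi (0.146% of those tested, against 0.183% of all features) and 2 fell (0.0183% against 0.00987%), while 801 had an unadjusted p under 0.05. PCK2, a phosphoenolpyruvate carboxykinase, measured 47.0 and 45.7 CPM at adequate Pi and 94.95 and 97.6 CPM at low Pi in wild type, and 41.5 and 43.8 CPM against 74.5 and 68.2 CPM in bzr1-D. All 4 low Pi libraries were above all 4 adequate Pi libraries, and the response was 0.90 ± 0.07 (adjusted p = 0.000368, edgeR's quasi-likelihood test). XTH23 rose by 0.91 ± 0.10 (adjusted p = 0.0029), from 10.03 to 12.7 CPM at adequate Pi to 18.8 to 29.0 CPM at low Pi. The amino acid transporter family member UMAMIT38 rose by 0.85 ± 0.09 (adjusted p = 0.0029 by edgeR), and HMA2 rose by 1.07 ± 0.12 (adjusted p = 0.0029). PAP12 and the cation/H+ exchanger CHX17 rose by 0.60 ± 0.08 and 0.55 ± 0.07 (adjusted p = 0.0096 for both by edgeR). MIOX2, which opens the inositol ring, rose by 0.46 ± 0.06 (adjusted p = 0.0051). The largest rises were in FAMT (4.95 ± 0.72), CYP706A2 (3.06 ± 0.42), AT2G04135 (3.05 ± 0.43) and AT2G26380 (2.14 ± 0.37). These features lay under 1 CPM in every adequate Pi library, and their adjusted p ran from 0.011 to 0.048 by edgeR. At low Pi, FAMT measured 0.550 and 4.16 CPM in wild type and 0.357 and 0.565 CPM in bzr1-D. AT2G26380 measured 0.881 and 4.05 CPM in wild type and 0.766 and 0.848 CPM in bzr1-D. In both, WT-L2 was the only low Pi library above 1 CPM. AT2G04135 measured 0.385 and 0.648 CPM in wild type and 1.89 and 1.87 CPM in bzr1-D at low Pi. The decreases were AT2G22122 (-0.50 ± 0.07, adjusted p = 0.017 by edgeR) and CYP82C2 (-2.63 ± 0.37, adjusted p = 0.017), the latter with the uneven wild-type values given above.

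Of the 18 features that passed the Pi test, 12 were also called between the genotypes, in a fit that uses the same libraries for both. The share called between the genotypes among all features tested in the intervals was 8.74%. Both tests also use the same residual spread of each feature, so a feature with little spread passes either more readily. Nothing is read from the overlap. HMA2, UMAMIT38, PAP12 and CHX17 had genotype differences of 1.57, 0.45, 0.37 and 0.73, and PCK2 of -0.28. XTH23 and MIOX2 had genotype differences of -0.13 and -0.06 and were not called. These Pi calls depended on the fit. The call count was 77 higher and 8 lower by DESeq2 and 0 and 0 without the Exp number, and without WT-L1 edgeR gave 82 and 6. Among the listed brassinosteroid and cell wall genes of the intervals, XTH23 was the 1 whose Pi response passed. DWF4, CPD and BR6OX2 had Pi responses of -0.18 ± 0.11, 0.06 ± 0.06 and -0.16 ± 0.07 (adjusted p = 0.85, 0.93 and 0.72 by edgeR), and XTH31 and XTH4 of 0.05 ± 0.10 and -0.08 ± 0.06 (adjusted p = 0.98 and 0.88).

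The genotype by Pi interaction asked whether the genotype difference itself changed with Pi supply. No feature was called by edgeR's quasi-likelihood test (0.0% of all features tested), and DESeq2 and limma-voom also called 0. By the edgeR test 361 features of the intervals had an unadjusted p under 0.05, which is 3.297% of those tested there. Among them were 44 of the 957 features called between genotypes (4.598%). Nothing is read from these counts. The change in the genotype difference at low Pi was 0.10 ± 0.23 for DWF4, -0.01 ± 0.13 for CPD and -0.03 ± 0.16 for BR6OX2 (SE, adjusted p = 1.00 each by edgeR). It was 0.02 ± 0.13 for XTH4, -0.15 ± 0.21 for XTH31 and -0.01 ± 0.24 for HMA2, and 0.43 ± 0.21 for MYB55. Among the listed genes the smallest unadjusted p belonged to the Pi starvation genes MGD3 (1.77 ± 0.47), SQD2 (0.76 ± 0.19) and GDPD5 (0.55 ± 0.16) and to XTH16 (0.52 ± 0.15), with adjusted p = 1.00 each by edgeR. A difference that misses the threshold is not shown to be absent. Without WT-L1, 20 features were called, 1 without bz-L1 and 2 without bz-L2.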

How the data were processed

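Reads of polyadenylated RNA (50-base single reads) from 8 root libraries were counted per feature by the authors, and the deposited values are whole-number counts without normalization. Per the submitters' processing notes, DESeq2 1.2.8, HTSeq 0.6.1 and TopHat2 2.0.11 were used with TAIR10. Strandedness and multi-mapping settings of the counting were not given in the sources used here, so genes that overlap a neighbour or have near-identical copies are uncertain. In the labels the strain and tissue values stand under each other's tag, and groups were taken from the sample titles.

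Counts were fitted with edgeR 4.0.16 in R 4.3.3 over all 8 libraries by the robust quasi-likelihood test with terms for Exp number, Pi and genotype. Scaling was TMM, the minimum count was 10, and 20262 features were tested. Benjamini-Hochberg adjustment ran over all of them (threshold 0.05). Residual degrees of freedom were 4, and 3 with the interaction term. CPM are TMM-scaled, a mean is given with its SD over 4 libraries of a genotype, and the SE of a log2 fold change follows from the F value. Same-numbered libraries deviated together in all 6 pairs of groups (correlations 0.29 to 0.64), so the Exp numbers, given by the labels without saying what they share, were kept as a replicate block. Replicates of a group differed beyond counting noise (chi-square per degree of freedom 16.9 to 36.3). P-values and SE rest on the spread between libraries that remains once Exp number, Pi and genotype are fitted. The biological coefficient of variation was 0.081 with the replicate block and 0.154 without it.

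Coordinates of genes are those of the deposited table. Starts lay within 2 kb of TAIR10.1 for 99.8% of matched nuclear features, and 32940 features were matched by locus. Promoters are from RefSeq on TAIR10.1. Named features were the 12 highest and 12 lowest called, with 4 matched differences of 1 sign and a mean of at least 1 CPM in the higher genotype, every called member of 15 gene lists (300 loci, 158 of them tested in the intervals), BZR1, BRI1, DWF4 and CPD. The intervals, members and lists were chosen with earlier results of these data known. Alternatives were DESeq2 1.42.0, limma-voom (limma 3.58.1), RLE size factors, a fit without the robust option, other count minimums, 1 coefficient per group, no replicate block and each library left out. Not every called list member is reported here.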

Additional observations from a re-analysis of the deposited data

Results flagged for a closer look

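In 3 of the 108 groups of 4 libraries examined for the named features, 1 library stood far from the others by Dixon's 95% criterion, and chance alone flags about 1 group in 20. CYP82C2 had 18.9 CPM in wild type at adequate Pi in Exp 2, the highest of the 4 wild-type libraries (gap over range 0.868). BLH2 had 11.9 CPM in wild type at low Pi in Exp 2, again the highest (0.862). PIN3 had 59.9 CPM in the same library, the lowest of wild type (0.837). BZR1 differed between the genotypes in opposite directions at the Pi levels. It was higher in bzr1-D by 2.08 CPM at adequate Pi and lower there by a difference of -3.44 CPM at low Pi, and the interaction was -0.26 ± 0.13 on the log2 scale (SE, unadjusted p = 0.071, adjusted p = 1.00, edgeR's quasi-likelihood test).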

How the results depend on the processing

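The number of features called between the genotypes in the intervals was within 1.5 times 494 higher and 463 lower under DESeq2 (384 and 358), limma-voom (494 and 460), RLE size factors (513 and 447), no filter on low counts (470 and 478), a minimum count of 50 (425 and 400), no robust option (497 and 496) and 1 coefficient per group (461 and 424). Without the replicate block it was 106 and 119, and the Pi response gave 0 higher and 0 lower. Leaving out 1 library at a time gave 327 to 494 features higher and 328 to 502 lower, 6 to 82 higher and 0 to 6 lower for the Pi response, and 0 to 20 for the interaction. The Pi response further gave 77 higher and 8 lower with DESeq2 and 34 higher without the robust option, and its lower calls numbered 1 with 1 coefficient per group, 1 with limma-voom, 1 at a minimum count of 50 and 4 with no filter. Of the 61 named features, 25 lost their call without the replicate block, 9 with DESeq2, and 5 to 12 when 1 library was left out. No called feature changed sign. BZR1, which was not called, ranged from -0.10 to 0.0089 on the log2 scale when 1 library was left out, against -0.03. The causes were not tested. With 2 libraries per group, features under about 1 CPM rest on few counts, and their fold changes carry wide intervals.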
